A study of Mus musculus with 6 samples.

Results

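Macrophages that held transcripts of both Nos2 and Arg1 were examined in 6 droplet single-cell RNA libraries of cells sorted from mouse colon after transplantation. A cell was counted as double-positive when it had at least 2 unique molecular identifiers (UMIs, each standing for 1 captured RNA molecule) of Nos2 and at least 2 of Arg1. It also had to pass a macrophage gate: Csf1r, Lyz2 and Cd68 summing to at least 5 UMIs, 6 T-cell receptor complex genes summing to at most 1, no Epcam, and S100a8 and S100a9 together under 1% of its UMIs. The cells were chosen by these values, so the levels of these genes describe the selection and were not tested. The rule found 1804 double-positive cells among 21991 gated macrophages and 60605 deposited barcodes. For comparison, 3020 gated macrophages were Nos2-only (at least 2 Nos2 UMIs and 0 Arg1), 1804 were Arg1-only (at least 2 Arg1 and 0 Nos2) and 12086 were double-negative (0 of both). The other 3277 held exactly 1 UMI of at least 1 of the genes and entered no comparison between classes.

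Each library was a study group of its own. The GVHD library held macrophages of mice given bone marrow with added spleen cells, which causes graft-versus-host disease (GVHD), an attack of donor T cells on recipient tissue. The BM library held macrophages of mice given bone marrow alone. Macrophages (donor-derived, CD11b+ CD64+) were also sorted from transplanted recipients that lacked IL-34 (IL34-/-, labelled IL34KO) and from WT recipients, and donor-derived T cells were sorted from both recipient types, which gave an IL34KO and a WT T-cell library. Strain, age, time after transplant and number of mice are not given in the sources used here, nor is whether the macrophage and T-cell libraries came from the same mice. The deletion lay in the recipients and the sort took donor cells, so Il34 in the sorted cells cannot check the labels. In double-positive cells it had 3 UMIs in the IL34KO and 3 in the WT macrophage library, and 0 in the IL34KO and 0 in the WT T-cell library.

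Nos2 encodes the inducible nitric oxide synthase, which turns arginine into nitric oxide and is a classical product of macrophages stimulated with interferon-gamma and bacterial products. Arg1 encodes arginase 1, which splits arginine into ornithine and urea and is known for macrophages stimulated with IL-4 or IL-13, in hypoxia and in wounds. Both enzymes use the same substrate, and their genes have often been used as markers of opposite activation states. In the gut, monocytes enter the lamina propria and can become resident macrophages. IL-34 is a ligand of CSF-1R, the receptor that macrophages need to survive and mature.

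The macrophage gate held 2054 cells of the GVHD library, 1960 of BM, 3125 of the IL34KO and 3365 of the WT macrophage library, 4224 of the IL34KO T-cell library and 7263 of the WT T-cell library. The T-cell libraries thus held gated macrophages although they were sorted for T cells. GVHD and BM shared 2502 barcodes, of 4169 in GVHD and 5874 in BM, and these were dropped from BM under the rule. Of the 203 double-positive barcodes of the GVHD library, 201 also occurred in another library, and in the other 4 libraries 2 to 6 double-positive barcodes occurred elsewhere. The same count was not made for the other GVHD macrophages, so it cannot be read as a trait of double-positive cells. Double-positive cells summed to between 3390779 and 8833267 UMIs per library, with a median of 37381 UMIs per cell in GVHD, 16309 in IL34KO and 21277 in WT macrophages, 10779 in the IL34KO and 9443 in the WT T-cell library. A doublet caller marked 0 barcodes in every library, so doublets were kept, and the effect of removing the expected number was checked. Of the double-positive cells, 4.47% to 13.1% per library were in that removed set. For double-positive, Nos2-only, Arg1-only and double-negative cells, the shares were 5.42, 1.52, 2.37 and 1.63% in GVHD. In the same order they were 13.1, 4.72, 9.73 and 2.35% in IL34KO and 12.2, 7.89, 4.85 and 3.11% in WT macrophages. In the T-cell libraries they were 4.47, 4.35, 5.25 and 6.17% in IL34KO and 10.8, 11.4, 10.4 and 8.12% in WT. The part of droplets with 2 macrophages in the double-positive class was not tested.

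Double-positive macrophages were found in every library except BM. They made up 9.88% of gated macrophages in GVHD (203 cells, 95% Clopper-Pearson interval 8.63 to 11.3%) and 0 of 1960 in BM, which allows a share of up to 0.153% (3 counts over the cells; the Clopper-Pearson upper limit is 0.188%). Among the BM barcodes that GVHD shared, 1746 passed the gate and 22 of them were double-positive. In the macrophage libraries they made up 13.6% in IL34KO (426 cells, 12.4 to 14.9%) and 9.99% in WT (336 cells, 8.99 to 11.05%). In the T-cell libraries they made up 6.89% in IL34KO (291 cells, 6.14 to 7.7%) and 7.55% in WT (548 cells, 6.95 to 8.18%). The IL34KO share was 1.37 times the WT share in the macrophage libraries (95% interval 1.19 to 1.56) and 0.913 times in the T-cell libraries (0.796 to 1.05). These intervals cover counting error only, and with 1 library per group no test between groups was possible.

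Depth sets the share of cells in which 2 UMIs of a gene are found, so the shares were recomputed after every cell was thinned to 5000 UMIs and shallower cells were left out. This left 2.39% double-positive cells in GVHD (45 cells, 168 cells left out) and 0 of 1733 in BM (227 left out). It left 7.36% in the IL34KO and 4.78% in the WT macrophage library (340 and 313 left out), and 5.6% in the IL34KO and 6.04% in the WT T-cell library (1207 and 1862 left out). The IL34KO share was then 1.54 times the WT share in the macrophage libraries (1.25 to 1.89) and 0.928 times in the T-cell libraries (0.775 to 1.11). The WT macrophage library had 1.01 times the GVHD share at full depth (0.856 to 1.19) and 2.00 times at 5000 UMIs (1.44 to 2.79), so this ratio depended on depth.

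**Figure D1:**
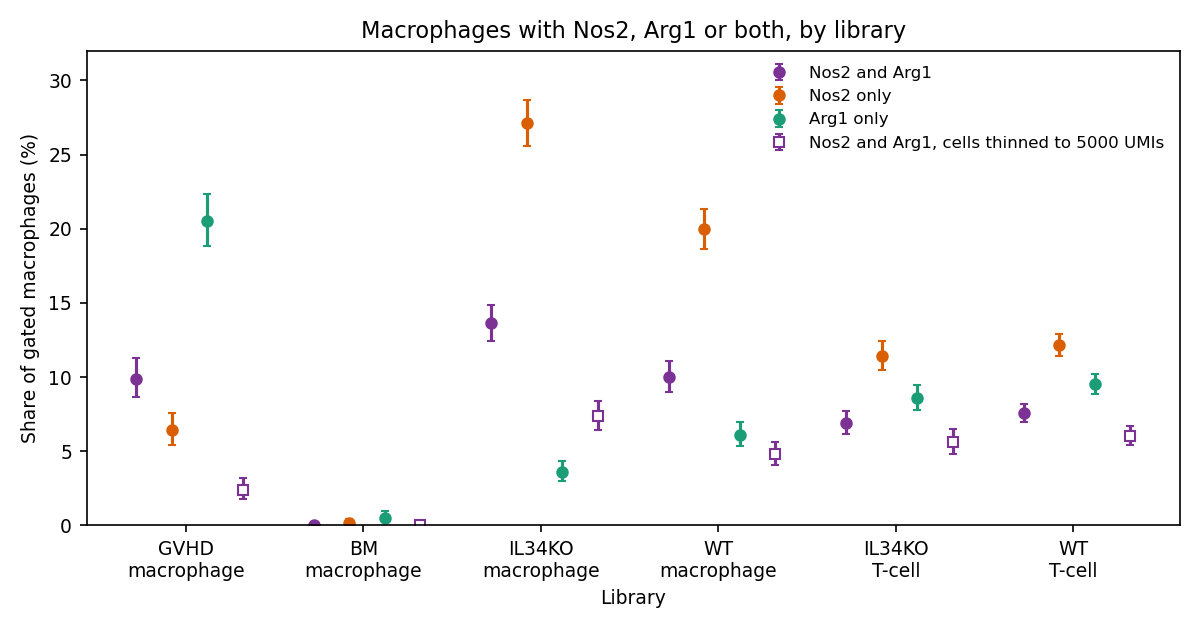
Share of gated macrophages (y axis, percent) that were double-positive, Nos2-only or Arg1-only in each library (x axis), with 95% Clopper-Pearson intervals; open squares give the double-positive share after thinning to 5000 UMIs per cell. Nos2-only cells outnumbered Arg1-only cells in the IL34KO and WT macrophage libraries, and Arg1-only cells outnumbered Nos2-only cells in GVHD.

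The single-positive classes differed in their split among libraries. Nos2-only cells made up 6.43% of gated macrophages in GVHD, 27.1% in IL34KO and 19.97% in WT macrophages, 11.4% in the IL34KO and 12.2% in the WT T-cell library. Arg1-only cells made up 20.5% in GVHD, 3.62% in IL34KO and 6.12% in WT macrophages, 8.57% in the IL34KO and 9.51% in the WT T-cell library. Among double-positive cells the share with more Arg1 than Nos2 UMIs was 62.6% in GVHD, 39.0% in IL34KO and 42.9% in WT macrophages, and 48.1% and 47.6% in the IL34KO and WT T-cell libraries. The share with more Nos2 than Arg1 UMIs was 32.5% in GVHD, 55.9% in IL34KO and 52.4% in WT macrophages, and 42.6% and 44.3% in the IL34KO and WT T-cell libraries. In the T-cell libraries Nos2-only cells thus outnumbered Arg1-only cells, while more of the double-positive cells had more Arg1 UMIs.

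Most double-positive cells lay above the threshold for both genes. The median cell had 8 Nos2 and 8 Arg1 UMIs, and the highest had 189 Nos2 and 159 Arg1 UMIs. Both genes reached at least 5 UMIs in 851 cells (47.2%) and at least 10 in 394. Just inside the threshold, 466 cells (25.8%) had exactly 2 UMIs of at least 1 of the genes, with a median of 11297 UMIs per cell. Just outside it, 378 cells had 1 Nos2 UMI and 526 had 1 Arg1 UMI beside at least 2 of the other gene, with a median of 11054.5 UMIs per cell. Over all double-positive cells 847 had more Nos2, 838 had more Arg1 and 119 had equal UMIs of both.

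The share of macrophages with Nos2 was set out by Arg1 and depth, as a description of the same values that chose the cells. Cells were split by library and by ranges of UMIs per cell, and cells with 1 Arg1 UMI were left out. The share with at least 2 Nos2 UMIs was larger in cells with at least 2 Arg1 UMIs than in cells with none in 18 of 19 strata. Depth also varied within each range and was not made equal. At 10000 to 20000 UMIs the Nos2 share was 67.3% of 269 Arg1-positive against 44.0% of 937 Arg1-negative cells in IL34KO macrophages, and 48.9% of 235 against 28.2% of 1072 in WT macrophages. In the same depth range it was 49.7% of 302 against 27.9% of 567 cells in the IL34KO T-cell library, 56.1% of 419 against 32.5% of 668 in the WT T-cell library, and 16.7% of 198 against 10.5% of 487 in GVHD. The 1 stratum the other way was GVHD under 5000 UMIs, with 0 of 20 Arg1-positive and 3 of 123 Arg1-negative cells.

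**Figure D2:**
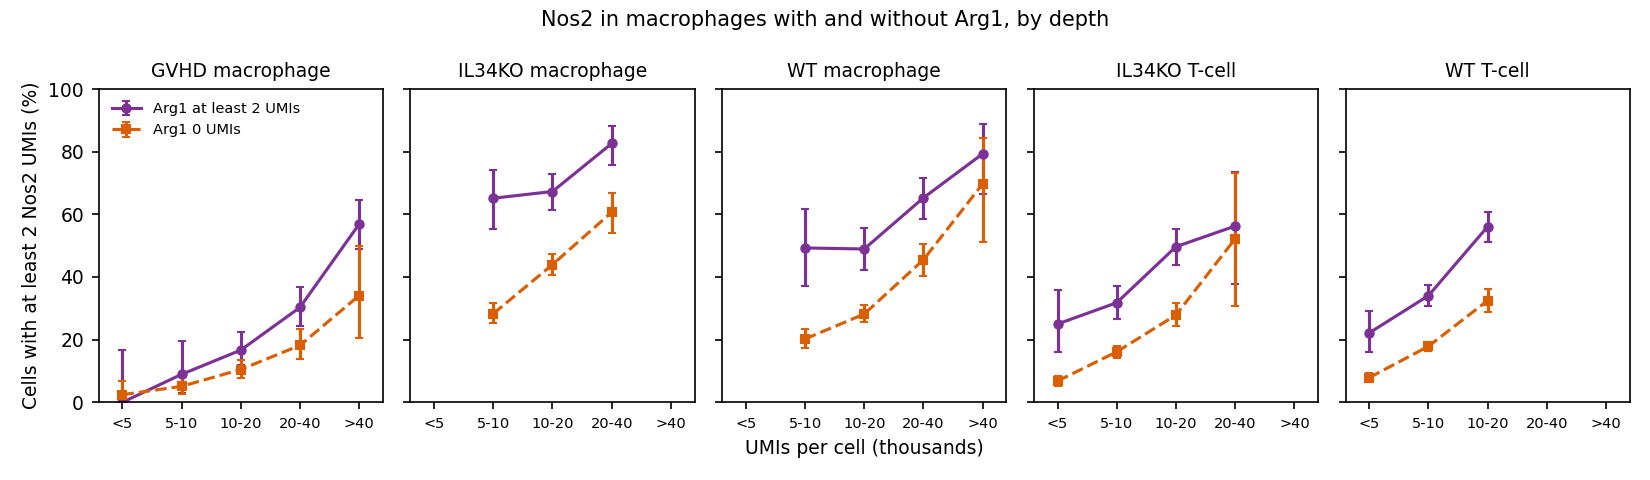
Share of gated macrophages with at least 2 Nos2 UMIs (y axis, percent) among cells with at least 2 Arg1 UMIs (circles) and with 0 Arg1 UMIs (squares), by UMIs per cell (x axis, divided by 1000), 1 panel per library, with 95% Clopper-Pearson intervals. The Arg1-positive line lies above the other in 18 of 19 strata, and the intervals do not overlap in 13.

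Free RNA can put UMIs of a gene into droplets whose cell does not express it. Both genes at 2 UMIs were looked for in cells picked as T cells (at least 3 receptor UMIs, at most 1 UMI of Csf1r, Lyz2 and Cd68, no Epcam) and as epithelial cells (at least 2 Epcam UMIs, at most 1 UMI of those 3 genes and at most 1 receptor UMI). These sets leave out droplets that mix such cells with macrophages. The limit on Csf1r, Lyz2 and Cd68 also leaves out droplets with more free macrophage RNA. The sets therefore cannot decide how much of that RNA reached other droplets. Within the sets no cell of any library held both genes. For T cells this was 0 of 959 in the IL34KO and 0 of 1482 in the WT T-cell library, which allow shares of up to 0.313% and 0.202%. Their median depths were 2911 and 2681.5 UMIs, below those of the double-positive cells. For epithelial cells it was 0 of 313 in the IL34KO T-cell library at a median of 5175 UMIs. Nos2 alone reached 2 UMIs in 7.67% of those epithelial cells and in 8.33% of 156 epithelial cells of the IL34KO macrophage library, while Arg1 did so in none of either set. Among 126 T cells of the BM library, 8 (6.35%) had at least 2 Arg1 UMIs. A further 579 barcodes held both genes but failed the macrophage gate, among them 444 with Epcam and 121 with over 1 receptor UMI.

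Double-positive cells carried macrophage markers that the rule had not used. Levels are given as CPM, the UMIs of a gene per 1000000 UMIs summed over the cells of a class in 1 library. Fcgr1, which encodes the sorted CD64, was at 89.7 CPM in GVHD, 82.7 in IL34KO and 88.2 in WT macrophages, 85.8 in the IL34KO and 88.2 in the WT T-cell library. Itgam, which encodes the sorted CD11b, was at 249.5 to 350.0 CPM, and the monocyte and macrophage co-receptor gene Cd14 at 858.7 to 1344 CPM. All 5 libraries had these markers, and Adgre1 (F4/80) was at 80.0 to 148.2 CPM.

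Markers of other cell types were summed for each class. T-cell genes outside the gate, 12 in all, summed to 358 to 1783 CPM over the 5 libraries in double-positive cells, against 398 to 2077 in Nos2-only, 171 to 860 in Arg1-only and 193 to 628 in double-negative cells. Most of this was Ccl5, which macrophages can also express and which was at 350.9 to 1777 CPM in double-positive cells. Neutrophil markers, 14 in all, summed to 2738 to 5222 CPM in double-positive cells, against 2945 to 4557 in Nos2-only, 2166 to 3929 in Arg1-only and 2154 to 3611 in double-negative cells. Dendritic cell markers, 16 in all, summed to 521 to 760 CPM, against 600 to 911, 584 to 695 and 619 to 832 in the same classes. Cd209a was at 0 in double-positive, Nos2-only and Arg1-only cells. Epithelial markers summed to at most 202 CPM and fibroblast and stromal markers to at most 66.7 CPM in double-positive cells.

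The classes were then compared over libraries. UMIs were summed per library and class, and edgeR's quasi-likelihood test with the library in the model asked whether a difference between classes was alike over the 5 libraries that held double-positive cells, with Benjamini-Hochberg adjustment over all 12256 genes tested and a threshold of 0.05. All 4 classes entered the same fit and shared its estimate of the spread. A p-value therefore does not rest on the differences between the compared classes alone. The genes of the rule were left out. Median UMIs per double-positive cell were 1.21 to 1.88 times those of Nos2-only, 1.27 to 1.94 times those of Arg1-only and 1.57 to 2.83 times those of double-negative cells, highest in GVHD each time. Comparisons were therefore repeated in cells of 10000 to 30000 UMIs and after thinning to 5000 UMIs. In the thinned comparison the cells kept the class set at full depth, so thinning did not remove the part of depth in setting the class.

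Against double-negative macrophages, double-positive cells had higher levels of genes of glycolysis and hypoxia, lipid handling and inflammation, and lower levels of cell cycle and resident-macrophage genes. Of the genes tested, 2114 were higher (17.2%) and 1896 lower (15.5%), 4010 in all (32.7%), and the median log2 fold change over all genes was -0.02. In the glycolysis and hypoxia list 23 of 23 tested members were higher and 0 lower, with a median log2 fold change of 0.76. In the lipid-associated list 18 of 20 were higher and 1 lower, with a median of 0.63. In the list of proinflammatory cytokines and enzymes 15 of 19 were higher and 1 lower, with a median of 0.77. The 3 libraries sorted for macrophages alone, a choice made after seeing the data, gave 2156 calls.

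Egln3, an oxygen-sensing prolyl hydroxylase that is itself a target of hypoxia-inducible factors, was at 5.89 CPM in double-positive against 2.06 CPM in double-negative cells of GVHD. The same pair was 66.8 against 6.57 CPM in IL34KO and 42.3 against 5.89 CPM in WT macrophages, 23.6 against 3.26 CPM in the IL34KO and 28.4 against 2.34 CPM in the WT T-cell library. It was higher in all 5 libraries and 8.78-fold higher in the fit (log2 3.13, SE 0.17, edgeR adjusted p = 7e-11). GVHD lay below the other 4 libraries in both classes. Bnip3, a mitophagy receptor induced by hypoxia, was 3.24-fold higher (edgeR adjusted p = 3.65e-10), and Ero1l, an oxidase of the endoplasmic reticulum, 3.08-fold (edgeR adjusted p = 1.88e-08). Vegfa, which encodes the angiogenic growth factor, was 2.17-fold higher (edgeR adjusted p = 8.29e-10).

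Since these genes moved together, their promoters were searched for the core of the hypoxia response element, the letters ACGTG or GCGTG on either strand, in windows of 250 bases before to 50 bases after the start of the gene (RefSeq, GRCm38.p6). Of the 25 list members 23 matched a promoter, and 21 of these (91.3%) held the letters, against 46.7% of all 27025 genes. A gene with several promoters counted if any of them held the letters. By promoter, 27 of 33 (81.8%) of the list held them, against 43.8% of all 32851. The list's promoters were richer in G and C (median 63.3% against 52.7%), and among genes with a promoter of at least 55% G and C the shares were 90.5% (19 of 21) and 66.2%. The list was made of glycolysis and hypoxia genes, so a high share can come with that choice and says nothing about these cells. A match is a description of letters and not a bound site. Ldha (lactate dehydrogenase A) and Bnip3 are shown because they hold several matches, and Egln3 because it had the largest difference of the list and holds 1. Capitals mark the matched letters, and CACGTG matches on both strands.
Ldha promoter, chr7:46845554-46845853, plus strand: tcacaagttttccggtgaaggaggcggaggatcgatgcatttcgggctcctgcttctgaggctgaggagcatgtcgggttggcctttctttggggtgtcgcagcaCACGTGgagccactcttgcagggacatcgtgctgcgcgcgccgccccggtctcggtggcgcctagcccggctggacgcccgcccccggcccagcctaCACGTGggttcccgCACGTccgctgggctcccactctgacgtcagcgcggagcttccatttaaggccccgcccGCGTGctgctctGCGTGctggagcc
Bnip3 promoter, chr7:138909457-138909756, minus strand: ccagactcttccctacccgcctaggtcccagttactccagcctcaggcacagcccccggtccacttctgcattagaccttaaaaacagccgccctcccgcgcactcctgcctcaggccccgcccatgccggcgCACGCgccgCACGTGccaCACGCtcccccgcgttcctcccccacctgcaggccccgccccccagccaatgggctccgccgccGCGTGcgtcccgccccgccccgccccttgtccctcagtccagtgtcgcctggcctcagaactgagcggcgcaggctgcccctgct
Egln3 promoter, chr12:54203825-54204124, minus strand: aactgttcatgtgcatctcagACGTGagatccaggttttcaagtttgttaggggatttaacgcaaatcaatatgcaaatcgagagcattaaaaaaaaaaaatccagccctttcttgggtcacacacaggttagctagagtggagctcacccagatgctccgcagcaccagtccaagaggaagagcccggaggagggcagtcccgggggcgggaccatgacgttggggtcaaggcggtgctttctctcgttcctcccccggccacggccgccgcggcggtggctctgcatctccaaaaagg

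Inhba, the subunit of activin A, was at 298.5 CPM in double-positive against 79.6 CPM in double-negative cells in GVHD, 1200 against 166 CPM in IL34KO and 1012 against 126.6 CPM in WT macrophages. In the T-cell libraries it was at 1544 against 102.9 CPM in IL34KO and 1382 against 118.9 CPM in WT. The classes did not overlap, and the fit gave 8.84-fold (log2 3.14, SE 0.22, edgeR adjusted p = 2.01e-09). Cxcl3, a chemokine that attracts neutrophils, was 9.37-fold higher (edgeR adjusted p = 2.24e-07). Spp1, osteopontin, was 8.83-fold higher (edgeR adjusted p = 3.6e-07), and the membrane glycoprotein gene Pdpn 6.45-fold (edgeR adjusted p = 4.4e-10). Slc1a2, a glutamate transporter gene, had the largest fold of the named genes, 9.72 (edgeR adjusted p = 1.36e-06), but in GVHD it was at 4.75 against 2.95 CPM.

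Around the shared substrate, 6 of 15 genes of arginine and nitric oxide metabolism were higher and 2 lower. Slc7a2, the cationic amino acid transporter that carries arginine into macrophages, was 3.84-fold higher (log2 1.94, SE 0.07, edgeR adjusted p = 2.06e-13). Ass1, which remakes arginine from citrulline, was 2.46-fold higher (edgeR adjusted p = 2.33e-09), and Arg2, the mitochondrial arginase, 1.7-fold (edgeR adjusted p = 1.72e-06). Gch1, the first enzyme of the synthesis of the cofactor that nitric oxide synthases need, was 1.35-fold higher (edgeR adjusted p = 1.3e-05). Odc1, which turns ornithine into polyamine precursors, was 1.28-fold lower (edgeR adjusted p = 0.00106), though over the 3 macrophage libraries alone its edgeR adjusted p was 0.1.

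Among genes lower than in double-negative cells, 19 of 20 cell cycle members were lower and 0 higher (median log2 fold change -0.91). Against Nos2-only cells 0 of these 20 were called in either direction (median -0.31). Against Arg1-only cells 3 were lower and 0 higher (median -0.43). Compared with double-negative cells, Ccna2, cyclin A2, was 2.76-fold lower (edgeR adjusted p = 5.03e-05) and the centromere protein gene Cenpf 2.5-fold (edgeR adjusted p = 9.56e-05). In the resident tissue macrophage list 15 of 20 were lower and 2 higher, with a median of -0.63. The lower ones numbered 8 without the WT T-cell library, 9 without the IL34KO T-cell library and 3 over the 3 macrophage libraries. Ccr2, the receptor with which monocytes leave the marrow, was 2.24-fold lower (edgeR adjusted p = 8.23e-07), and Mgl2, a lectin of alternatively activated macrophages, 3.45-fold (edgeR adjusted p = 7.22e-07). Their lists were split. Monocyte genes were higher for 7 of 20 and lower for 10 (median -0.17). Alternative activation genes were higher for 5 of 19 and lower for 8 (median -0.01). In the stress and dissociation list 11 of 18 were lower and 2 higher. Hspa1b, a heat-shock protein gene, was 2.33-fold lower (edgeR adjusted p = 2.45e-06), at 4.72 to 22.5 CPM in double-positive cells of 4 libraries and at 215.4 CPM in GVHD. Fibroblast and stromal markers were lower for 7 of 10, with Col3a1 at 0 to 1.02 CPM in double-positive against 3.52 to 32.4 CPM in double-negative cells; the part of such cells in these differences was not tested.

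**Figure D3:**
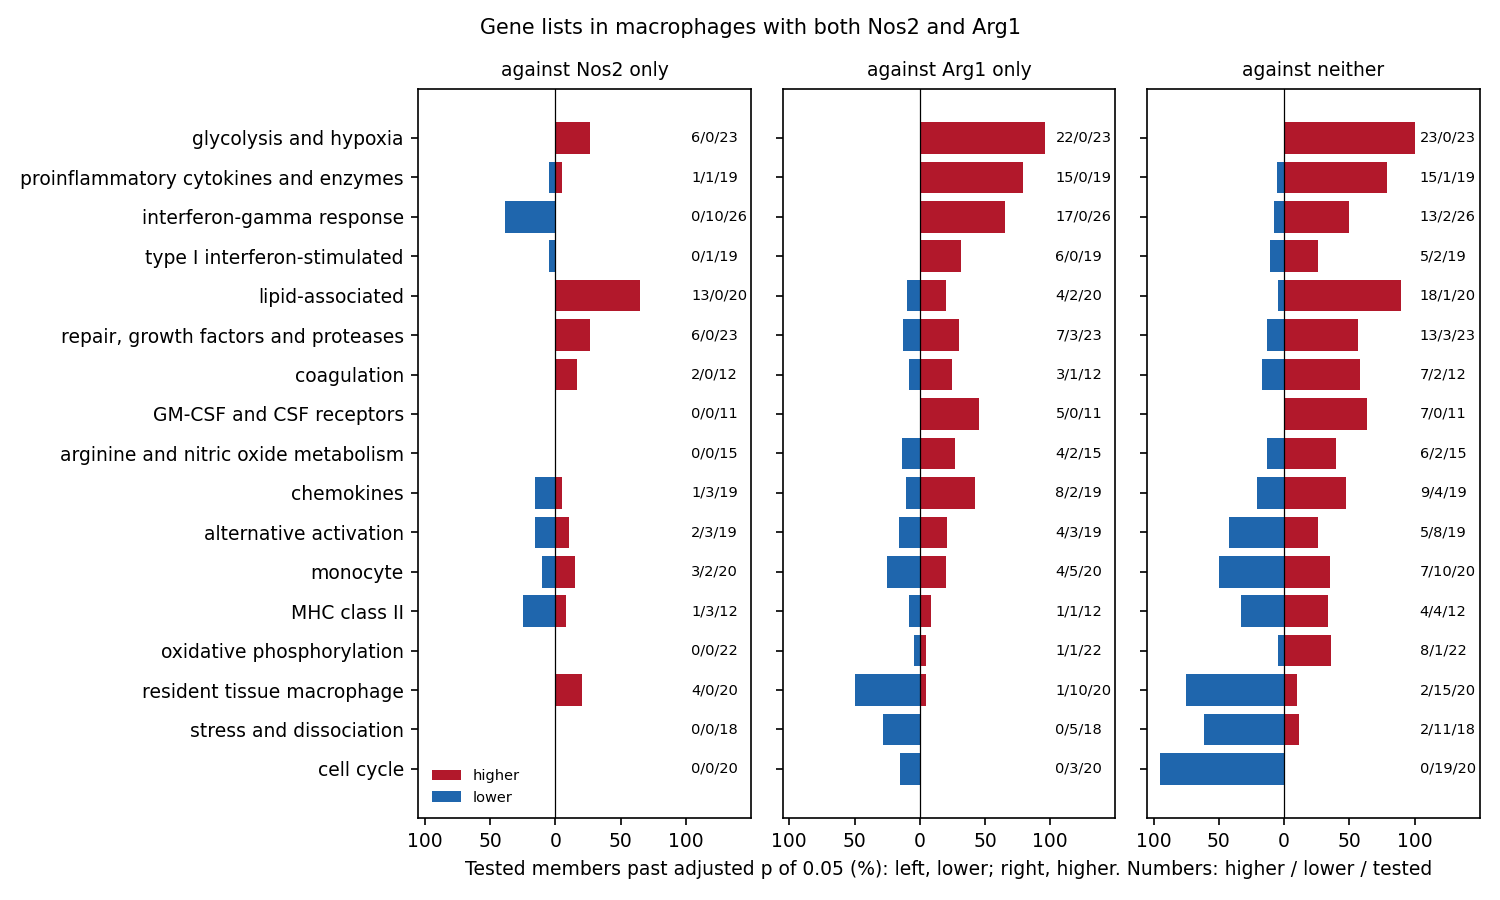
Percent of the tested members of 17 gene lists (rows) that passed the adjusted p threshold of 0.05 in edgeR's quasi-likelihood test, higher in double-positive cells to the right and lower to the left, against Nos2-only, Arg1-only and double-negative macrophages (3 panels); numbers give higher, lower and tested members. Glycolysis and hypoxia genes were higher for 6 of 23, 22 of 23 and 23 of 23 members.

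Against Arg1-only macrophages, double-positive cells had higher levels of glycolysis and hypoxia, proinflammatory and interferon-gamma response genes and lower levels of resident-macrophage genes. Higher genes numbered 1039 (8.48%) and lower genes 683 (5.57%), 1722 in all. Calls numbered 1035 without the WT macrophage library, 1075 without the IL34KO macrophage library, 865 without the WT and 1033 without the IL34KO T-cell library. Glycolysis and hypoxia genes were higher for 22 of 23 and lower for 0 (median log2 fold change 0.47, against -0.005 over all genes), and at least 18 were higher in each alternative that kept the library in the model. Proinflammatory cytokines and enzymes were higher for 15 of 19 and lower for 0 (median 0.63), and interferon-gamma response genes for 17 of 26 and 0 (median 0.35). The proinflammatory count was 10 without the WT and 10 without the IL34KO macrophage library, and 10 of 18 over the 3 macrophage libraries. For interferon-gamma response genes these counts were 14, 12 and 11. Without the library term the higher members numbered 10 for glycolysis and hypoxia, 0 for proinflammatory and 3 for interferon-gamma response genes.

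Slc7a2, the arginine transporter gene, was higher than in Arg1-only cells. It was at 425.6 against 187.2 CPM in GVHD, 817.4 against 391.8 CPM in IL34KO and 926.0 against 382.4 CPM in WT macrophages, 1288 against 656.9 CPM in the IL34KO and 1399 against 623.4 CPM in the WT T-cell library. It was 2.26-fold higher (log2 1.18, SE 0.07, edgeR adjusted p = 2.85e-09), and higher within each library. Ass1 was 2.01-fold higher (edgeR adjusted p = 1.95e-06) and Arg2 1.43-fold (edgeR adjusted p = 0.00148; 0.079 over the 3 macrophage libraries alone). Slc3a2 was the only other member that was higher, and Odc1 and Sat1 were lower. Odc1 was 1.19-fold lower (edgeR adjusted p = 0.035), a call lost without the WT macrophage library (edgeR adjusted p = 0.052) without either T-cell library (0.16 for each) and over the 3 macrophage libraries (0.51).

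Il12a, the p35 subunit of IL-12, was at 3.4 against 0.706 CPM in GVHD, 25.2 against 3.73 CPM in IL34KO and 13.5 against 7.09 CPM in WT macrophages, 9.73 against 1.23 CPM in the IL34KO and 7.46 against 2.39 CPM in the WT T-cell library. It was 3.71-fold higher in the fit (log2 1.89, SE 0.32, edgeR adjusted p = 0.000474), and GVHD again had the lowest level. The cytokine gene Il6 was 1.76-fold higher (edgeR adjusted p = 0.00168) and Il1b, the precursor of interleukin-1 beta, 1.4-fold (edgeR adjusted p = 3.33e-05). Of the interferon-gamma response genes, Batf2, a transcription factor, was 1.47-fold higher (edgeR adjusted p = 0.000235). Cxcl9, a chemokine for activated T cells, was 1.46-fold higher (edgeR adjusted p = 0.00187), but its level was lower in double-positive cells of the IL34KO macrophage library, at 1312 against 1455 CPM, and over the 3 macrophage libraries its edgeR adjusted p was 0.09.

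Among the genes named by the rule, the largest fold over Arg1-only cells was that of Ccl17, a chemokine of alternatively activated macrophages and dendritic cells, which was at 143.8 against 23.8 CPM in GVHD, 166.3 against 81.5 CPM in IL34KO and 306.1 against 39.97 CPM in WT macrophages. In the T-cell libraries it was at 256.6 against 49.96 CPM in IL34KO and 356.1 against 80.5 CPM in WT. It was 4.85-fold higher (log2 2.28, SE 0.19, edgeR adjusted p = 5.97e-07), and its partner Ccl22 was 2.45-fold higher (edgeR adjusted p = 3.34e-05). Of the dendritic cell list, 5 of 11 tested members were higher and 1 lower, against 8.48% and 5.57% of all genes tested. The higher ones were Ccl22, Zbtb46, Clec9a, Ccr7 and Bst2, and the part of dendritic cells was not tested. Inhba was 3.74-fold higher (edgeR adjusted p = 7.39e-06), and Procr, the endothelial protein C receptor gene, 3.06-fold (edgeR adjusted p = 3.38e-07). Ccl5 was 2.03-fold higher (edgeR adjusted p = 1.87e-05), beside the T-cell marker sums given above, whose part was not tested. The shared GM-CSF receptor chain genes Csf2rb and Csf2rb2 were 1.21-fold and 1.35-fold higher (edgeR adjusted p = 4.92e-05 and 1.5e-05), and 5 of 11 genes of that list were higher and 0 lower.

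Resident tissue macrophage genes were lower than in Arg1-only cells for 10 of 20 and higher for 1 (median log2 fold change -0.42); 6 were lower without the WT T-cell library. C1qa, a chain of complement C1q, was at 985.0 to 1674 CPM in double-positive and 1403 to 2513 CPM in Arg1-only cells and lower in each of the 5 libraries, 1.36-fold in the fit (edgeR adjusted p = 1.22e-05). Apoe, apolipoprotein E, was 1.78-fold lower (edgeR adjusted p = 0.000129), and Mrc1, the mannose receptor gene, 1.61-fold (edgeR adjusted p = 0.000272). The monocyte genes did not move together, with 4 of 20 higher and 5 lower. Among the lower ones Ccr2 was 1.68-fold lower (edgeR adjusted p = 0.000945).

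**Figure D4:**
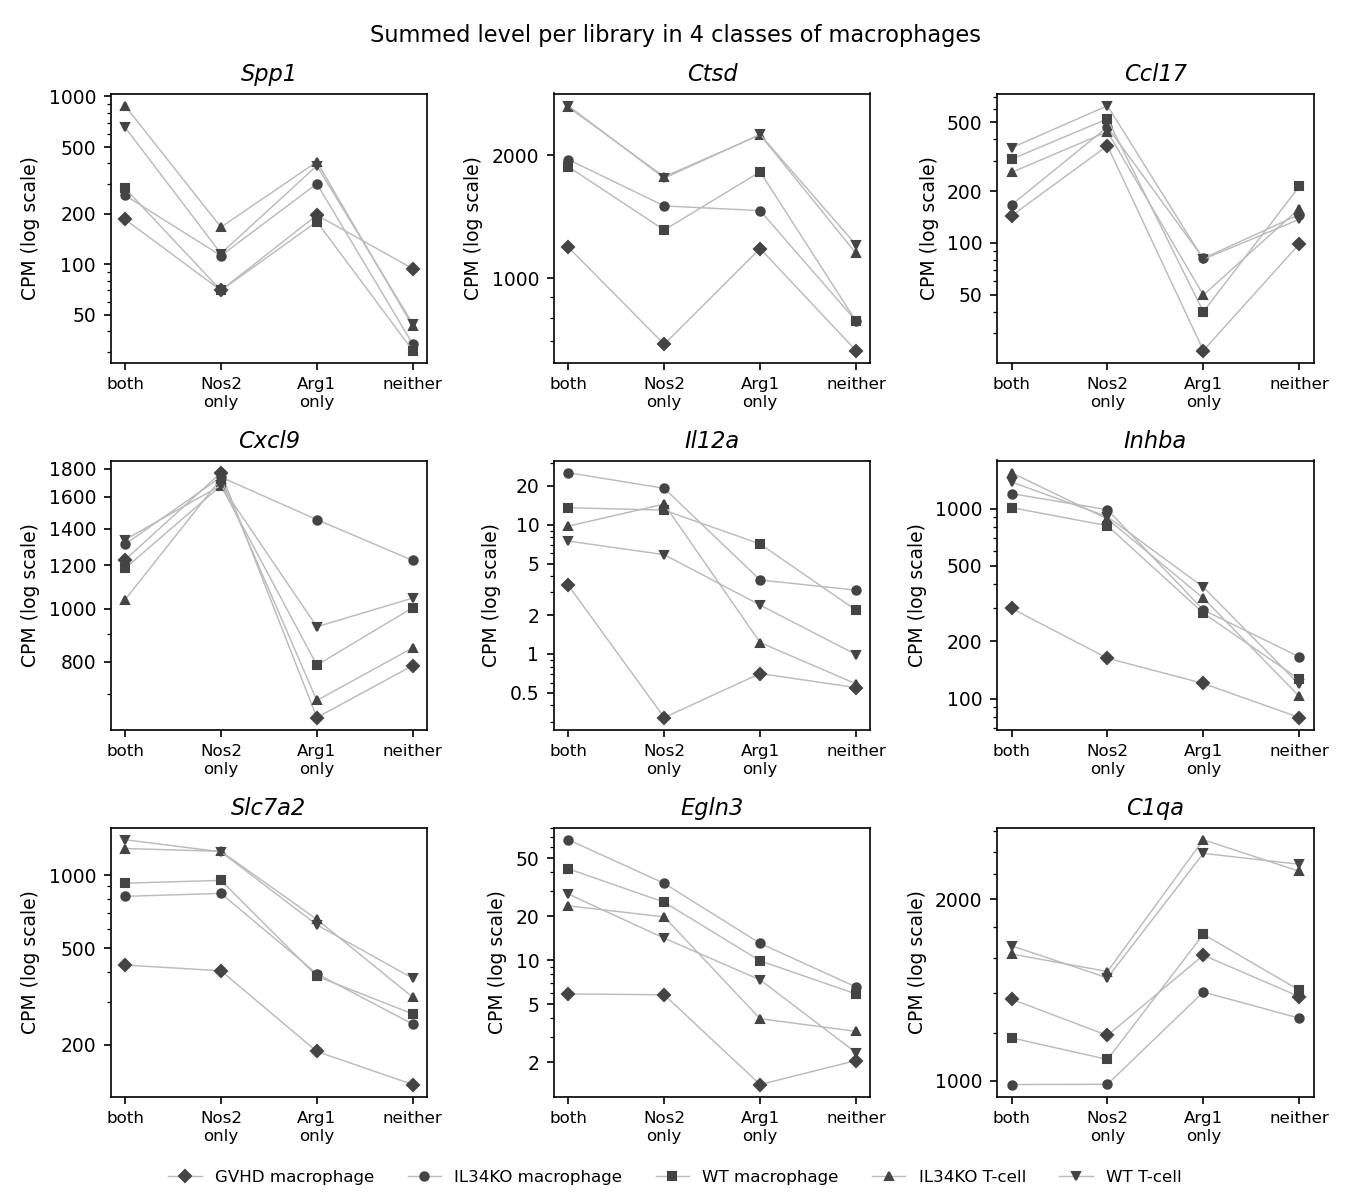
CPM (y axis, log scale) of 9 genes in double-positive, Nos2-only, Arg1-only and double-negative macrophages (x axis), 1 symbol per library joined by grey lines. Spp1 and Ctsd were higher in double-positive than in Nos2-only cells of every library, and Ccl17 and Cxcl9 were lower.

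Nos2-only macrophages were the class nearest to the double-positive cells by the number of calls. Double-positive cells had higher levels of lipid-associated genes and lower levels of interferon-gamma response genes. Higher genes numbered 250 (2.04%) and lower genes 192 (1.57%), 442 in all. Calls numbered 492 without GVHD, 152 without the WT macrophage library, 192 without the WT T-cell library and 154 without the IL34KO T-cell library, and 112 over the 3 libraries sorted for macrophages. Lipid-associated genes were higher for 13 of 20 and lower for 0, with a median log2 fold change of 0.36 against 0.01 over all genes. The higher ones numbered 7 without the WT macrophage library, 8 without either T-cell library and 4 over the 3 macrophage libraries, with 0 lower each time. Against Arg1-only cells 4 of 20 lipid-associated genes were higher and 2, Apoe and Trem2, lower (median 0.08). Resident tissue macrophage genes were higher than in Nos2-only cells for 4 of 20 and lower for 0 (median 0.23). That count was 1 without the WT macrophage library and 2 without either T-cell library.

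Spp1 led the lipid-associated list. It was at 185.2 against 70.0 CPM in GVHD, 257.9 against 112.6 CPM in IL34KO and 283.8 against 70.0 CPM in WT macrophages, 880.9 against 166.6 CPM in the IL34KO and 655.4 against 116.1 CPM in the WT T-cell library. Averages were 453 ± 301 CPM in double-positive and 107 ± 39.997 CPM in Nos2-only cells (SD, n = 5 libraries each), and the fit gave 3.98-fold (log2 1.99, SE 0.31, edgeR adjusted p = 0.00103). Every library had it higher in double-positive cells, although its level varied widely among them. Trem2, a lipid receptor of macrophages, was 1.4-fold higher (edgeR adjusted p = 0.000178). Ctsd, the lysosomal protease cathepsin D, was 1.51-fold higher (edgeR adjusted p = 0.000648; 0.06 over the 3 macrophage libraries), and Apoe 1.47-fold (edgeR adjusted p = 0.0118; 0.055 without the WT macrophage library).

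Beyond this list, Pdpn was 1.95-fold higher than in Nos2-only cells (edgeR adjusted p = 0.0012; 0.08 over the 3 macrophage libraries). Syngr1, a vesicle membrane protein gene, was 2.05-fold higher (edgeR adjusted p = 0.00042), and Fn1, fibronectin, 1.69-fold (edgeR adjusted p = 0.00121). Chil3, a chitinase-like lectin gene of monocytes and alternatively activated macrophages, was 1.88-fold higher (edgeR adjusted p = 0.0131; 0.059 without the WT T-cell library). Adam8, a membrane protease gene, was 1.33-fold higher (edgeR adjusted p = 0.00205) and was 1 of 6 higher members, with 0 lower, among 23 genes of repair, growth factors and proteases. This count was 2 without the IL34KO T-cell library, 2 without the WT macrophage library and 3 without the WT T-cell library. Glycolysis and hypoxia genes were higher for 6 of 23 and lower for 0. That count was 1 without the IL34KO T-cell library, 2 without the IL34KO macrophage library, 3 without the WT macrophage or the WT T-cell library, 1 over the 3 macrophage libraries and 13 in cells of 10000 to 30000 UMIs. Egln3 was 1.72-fold higher (edgeR adjusted p = 0.00525; 0.076 without the WT and 0.1 without the IL34KO macrophage library).

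Lower than in Nos2-only cells were 10 of 26 interferon-gamma response genes, with 0 higher and a median of -0.23. This count was 3 without the WT and 3 without the IL34KO T-cell library, 5 without the WT macrophage library and 1 over the 3 macrophage libraries. Gbp5, a guanylate-binding protein gene, was at 124 against 169.7 CPM in GVHD, 245.4 against 290.8 CPM in IL34KO and 223.5 against 290.8 CPM in WT macrophages, 191.7 against 284.7 CPM in the IL34KO and 204.5 against 269.1 CPM in the WT T-cell library. It was 1.29-fold lower (edgeR adjusted p = 0.00042). Cxcl9 was at 1039 to 1337 CPM in double-positive and 1678 to 1771 CPM in Nos2-only cells, 1.38-fold lower (edgeR adjusted p = 0.0184; 0.095 without the WT macrophage library, 0.055 without the WT and 0.11 without the IL34KO T-cell library, 0.22 in cells of 10000 to 30000 UMIs and 0.21 over the 3 macrophage libraries).

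Ccl17 was also lower than in Nos2-only cells in all 5 libraries, 1.98-fold (edgeR adjusted p = 0.0016), and so was Ccl22, 1.84-fold (edgeR adjusted p = 0.00042). Both genes lay between their levels in the single-positive classes. Ccr7, a chemokine receptor of migrating dendritic cells, was 1.95-fold lower (edgeR adjusted p = 0.00042), at 18.6 to 36.5 CPM in double-positive and 47.1 to 62.4 CPM in Nos2-only cells. Ccr7 and Ccl22 are on the dendritic cell list, whose summed levels are given above and whose part was not tested. Pdcd1lg2, which encodes the PD-1 ligand PD-L2, was 1.47-fold lower (edgeR adjusted p = 0.00011), Serpinb9, an inhibitor of granzyme B, 1.69-fold (edgeR adjusted p = 9.11e-05), and Kynu, an enzyme of tryptophan breakdown, 1.68-fold (edgeR adjusted p = 0.000504).

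Genes of arginine metabolism were not called against Nos2-only cells, with 0 of 15 past the threshold in either direction by edgeR or DESeq2 and 3 at an unadjusted p under 0.05 in edgeR. Slc7a2 was at 425.6 to 1399 CPM in double-positive and 403.0 to 1253 CPM in Nos2-only cells (log2 0.08, SE 0.07, edgeR adjusted p = 0.607). Ass1 gave a log2 fold change of 0.13 (SE 0.09, edgeR adjusted p = 0.51) and Arg2 of 0.15 (SE 0.09, edgeR adjusted p = 0.451). Il1b did not pass either (log2 0.08, SE 0.06, edgeR adjusted p = 0.6). Inhba was higher in 5 of 5 libraries by a log2 fold change of 0.58 that missed the threshold (SE 0.20, edgeR adjusted p = 0.114), and passed it without GVHD (edgeR adjusted p = 0.011). It also passed in cells with 10000 to 30000 UMIs (edgeR adjusted p = 0.0135), after thinning to 5000 UMIs (0.0103) and with no filter on low counts (1.59e-13).

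Among the double-positive cells themselves, those with more Nos2 than Arg1 UMIs were compared with those with more Arg1 than Nos2 UMIs. Of 9552 genes tested, 61 were higher (0.639%) and 16 lower (0.168%) in the Nos2-leaning cells, 77 in all (0.806%). Calls numbered 25 without the WT and 44 without the IL34KO T-cell library. Ccl22 was 3.07-fold higher (log2 1.62, SE 0.17, edgeR adjusted p = 0.000113) and Ccl17 2.92-fold (log2 1.55, SE 0.12, edgeR adjusted p = 1.9e-06), each in 5 of 5 libraries. Interferon-gamma response genes were higher for 8 of 25 and lower for 0, which was 4 without the IL34KO and 3 without the WT T-cell library, and 5 without the WT macrophage library. Cxcl9 was 1.25-fold higher (edgeR adjusted p = 0.00275). Slc7a2 was 1.43-fold higher (edgeR adjusted p = 0.000585), Procr 1.47-fold (edgeR adjusted p = 0.0027), Serpinb9 1.72-fold (edgeR adjusted p = 0.00497) and Ccl5 1.4-fold (edgeR adjusted p = 0.0035).

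Lower in the Nos2-leaning cells were 4 of 19 lipid-associated genes, with 0 higher; 2 were lower without the IL34KO T-cell or the WT macrophage library and 1 without the WT T-cell library. Spp1 was 1.9-fold lower in 5 of 5 libraries (log2 -0.93, SE 0.14, edgeR adjusted p = 0.00275), and Syngr1 1.52-fold (edgeR adjusted p = 0.00428; 0.061 over the 3 macrophage libraries). Apoe was 1.17-fold lower (edgeR adjusted p = 0.0102; 0.092 without the WT T-cell library, 0.15 in cells of 10000 to 30000 UMIs and 0.24 over the 3 macrophage libraries). Of 23 glycolysis and hypoxia genes edgeR called 0 in either direction, with 7 at an unadjusted p under 0.05, and DESeq2 also called 0.

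Double-positive cells of the GVHD library stood apart from those of the other 4 libraries in several genes, which were picked after their values were seen. Nos2 itself was at 249.3 CPM in GVHD and at 652.7 to 948.3 CPM in the other 4. Slc7a2 was at 425.6 CPM against 817.4 to 1399, Inhba at 298.5 CPM against 1012 to 1544, and Il1b at 1909 CPM against 3299 to 5200. Odc1 was the other way, at 735.1 CPM in GVHD against 251.9 to 310.0. In Nos2-only, Arg1-only and double-negative cells GVHD was likewise the lowest library for Slc7a2, Inhba and Il1b and the highest for Odc1. Slc7a2 was at 136.8 CPM in double-negative cells of GVHD against 242.9 to 375.2 CPM, and Odc1 at 802.3 CPM against 350.7 to 472.0. Hspa1b, a heat-shock protein gene, was at 215.4 to 375.1 CPM over the 4 classes in GVHD, against at most 58.3 CPM in the other 4 libraries. The median mitochondrial share was 3.06% in GVHD double-positive cells and 1.33 to 1.82% in those of the other 4; the part of either in these differences was not tested. GVHD cells were also the deepest, and which library was made with the 5′ and which with the 3′ kit is not stated in the labels, so mouse group, depth and kit cannot be told apart.

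IL34KO and WT double-positive cells were compared within each sort. No test was possible with 1 library each, and ratios carry exact 95% intervals for counting error only. Of 7146 genes with at least 50 UMIs in 1 library of each pair, 50 were at least 1.5-fold higher (0.7%) and 148 lower (2.07%) in IL34KO than in WT in the macrophage libraries. In the T-cell libraries 105 were higher (1.47%) and 156 lower (2.18%). Both sorts had 6 genes higher (0.084%) and 17 lower (0.238%), and 8 (0.112%) were in opposite directions.

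Il12b, the p40 subunit of IL-12 and IL-23, was among the genes lower in IL34KO in both sorts. It had 16 UMIs (1.88 CPM) in IL34KO and 64 UMIs (7.8 CPM) in WT macrophages, 4.14-fold lower in IL34KO. In the T-cell libraries it had 15 UMIs (4.42 CPM) in IL34KO and 108 UMIs (19.7 CPM) in WT, 4.44-fold lower. As IL34KO over WT the ratios were 0.241 (0.13 to 0.423) and 0.225 (0.122 to 0.388). In Nos2-only cells the same Il12b ratios were 0.766 (0.588 to 0.997) and 2.04 (1.59 to 2.63), in opposite directions in the T-cell libraries' double-positive and Nos2-only cells; that difference was not tested.

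Il10, an anti-inflammatory cytokine gene, was at 10.4 CPM in IL34KO and 23.8 CPM in WT macrophages, and at 6.19 CPM in IL34KO and 14.9 CPM in WT in the T-cell libraries. Its ratios were 0.436 (0.335 to 0.563) and 0.415 (0.244 to 0.677), against 0.662 and 0.979 in Nos2-only cells. Pla2g2d, a secreted phospholipase gene, was at 12.2 CPM in IL34KO and 47.1 CPM in WT macrophages (ratio 0.26, 0.207 to 0.323) and at 27.1 CPM in IL34KO and 50.04 CPM in WT in the T-cell libraries (0.542, 0.423 to 0.689). Pdgfc, a platelet-derived growth factor gene, had ratios of 0.4 (0.277 to 0.569) and 0.382 (0.237 to 0.596), and Hpgds, a prostaglandin D synthase gene, of 0.584 (0.458 to 0.741) and 0.589 (0.4 to 0.854).

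Higher in IL34KO in both sorts were Cxcl1, a neutrophil chemokine gene, and Retnla, a resistin-like gene of alternative activation. Cxcl1 was at 44.0 CPM in IL34KO and 26.2 CPM in WT macrophages (1.68, 1.42 to 2.00) and at 49.0 CPM in IL34KO and 32.4 CPM in WT in the T-cell libraries (1.51, 1.22 to 1.88). Retnla was at 22.5 CPM in IL34KO and 13.5 CPM in WT macrophages (1.66, 1.31 to 2.12) and at 27.4 CPM in IL34KO and 4.91 CPM in WT in the T-cell libraries (5.58, 3.6 to 8.92). Retnla was also higher in IL34KO Nos2-only macrophages (3.22, 2.72 to 3.83). Other alternative activation genes did not rise with it. Of 16 measured, 1 was at least 1.5-fold higher and 5 were lower in the macrophage libraries (median log2 ratio -0.17). In the T-cell libraries 1 was higher and 3 were lower (median -0.11). Cmss1 was higher in both sorts (1.56 and 1.82), with ratios of 1.25 to 1.97 in the other classes. Phgr1, an epithelial marker, had ratios of 1.52 and 1.88, at 8.28 to 21.5 CPM; its source was not tested. The epithelial marker list had a median log2 ratio of 0.56 in the macrophage libraries, with 3 of 6 measured genes at least 1.5-fold higher and 0 lower, and of -0.38 in the T-cell libraries, with 1 higher and 0 lower.

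**Figure D5:**
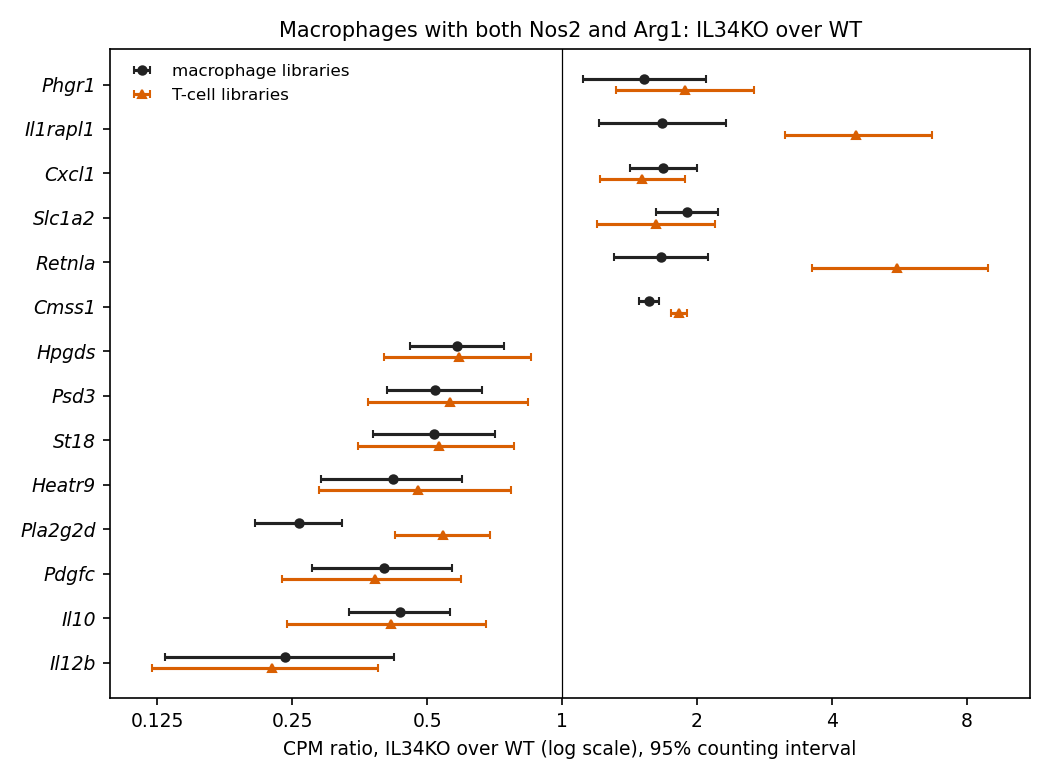
Ratio of CPM, IL34KO over WT (x axis, log scale), in double-positive macrophages of the macrophage libraries (circles) and the T-cell libraries (triangles), with exact 95% counting intervals, for the 6 genes highest and the 8 genes lowest in both sorts. Il12b and Il10 lie at similar ratios in both sorts, and Retnla and Il1rapl1 differ most between them.

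The median log2 ratio of the resident tissue macrophage list was -0.42 in the macrophage libraries, with 6 of 14 measured genes at least 1.5-fold lower and 0 higher, and -0.01 in the T-cell libraries, with 0 in either direction. Over all 7146 genes the medians were -0.02 and -0.03, with 0.7% higher and 2.07% lower in the macrophage libraries. Apoe was at 1702 CPM in IL34KO and 4217 CPM in WT double-positive macrophages (0.404, 0.396 to 0.412), and at 4815 CPM in IL34KO and 5291 CPM in WT in the T-cell libraries (0.91, 0.893 to 0.928). Mrc1 gave 0.558 (0.515 to 0.605) and 0.893 (0.812 to 0.982). The Apoe ratio was also low in the other 3 classes of the macrophage libraries, between 0.389 and 0.525. Ly6c2, a marker of inflammatory monocytes, gave 1.7 (1.59 to 1.82) and 1.17 (1.02 to 1.33). In the monocyte list 1 of 18 measured genes was at least 1.5-fold higher and 3 were lower in the macrophage libraries (median log2 ratio 0.12), with 0 in either direction in the T-cell libraries (median 0.02).

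The median log2 ratio of 14 measured genes of arginine and nitric oxide metabolism was -0.03 in the macrophage and 0.02 in the T-cell libraries, with 0 members at least 1.5-fold apart in the macrophage libraries and 1 in each direction in the T-cell libraries. Slc7a2 gave ratios of 0.883 (0.854 to 0.912) and 0.92 (0.886 to 0.955), and Ass1 of 1.16 (1.08 to 1.24) and 1.37 (1.24 to 1.5). Csf1r, the IL-34 receptor gene and part of the gate, was at 514.8 CPM in IL34KO and 503.9 CPM in WT macrophages, and at 425.0 CPM in IL34KO and 413.0 CPM in WT in the T-cell libraries.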

How the data were processed

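The authors deposited UMI counts per gene and barcode for each library, as 10x matrices made with Cell Ranger 7.0.1 on mm10, per the submitters' processing notes. Both 5′ and 3′ 10x kits are named in the labels' protocols, without saying which library used which. The members, the gene lists and the tests were chosen with earlier results of these data known.

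Barcodes entered the work if they held 500 genes or more and mitochondrial UMIs were 10% or less. BM barcodes also found in GVHD were dropped, and the macrophage gate and class thresholds were then applied (Python 3.11.15, scanpy 1.11.5). The 6 libraries held 43660889 to 114425913 UMIs. UMIs were summed per library and class where at least 20 cells were present (10 for the comparison within double-positive cells), and edgeR 4.0.16 in R 4.3.3 (quasi-likelihood test, TMM scaling, its filter on low counts, library in the model, Benjamini-Hochberg adjustment) was the test across all genes. DESeq2 1.42.0, another scaling, no filter on low counts, no library term, expected doublets removed (0.8% per 1000 barcodes), a depth window, thinning and each library left out were the alternatives. On simulated data the test recovered 71.6% of genes changed 1.5-fold and 91.0% of those changed 2-fold for the comparison with Nos2-only cells (12104 genes). Against Arg1-only cells these were 64.2% and 86.6%, and against double-negative cells 73.1% and 95.5%. Unchanged genes called numbered 11, 12 and 9 in the same order. The counts were drawn from the fit's own means and spread, with the same change in every library. Recovery where libraries differ in a change was not tested. Libraries may share mice, so p-values speak only of how alike a difference was over these libraries.

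Genes were named by a rule: per comparison the 10 highest and 10 lowest fold changes past an adjusted p of 0.05, with the same direction in every library and at least 20 CPM in 1 class; up to 4 members per list; and a fixed set around arginine and macrophage function. For IL34KO against WT, the rule took genes at least 1.5-fold apart the same way in both sorts with at least 50 UMIs. Intervals are exact and cover counting error only. Promoters are RefSeq sequences on GRCm38.p6.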

Additional observations from a re-analysis of the deposited data

Results flagged for a closer look

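In double-positive cells 3 genes named by the rule lay on opposite sides of 1 in the macrophage and T-cell libraries, as IL34KO over WT. Arg2, the mitochondrial arginase gene, had a ratio of 1.28 in the macrophage libraries and 0.848 in the T-cell libraries. The interferon-induced chemokine gene Cxcl9 had ratios of 1.11 and 0.777, and Spp1, which encodes osteopontin, of 0.909 and 1.34. With 1 library per group the difference between the sorts was not tested.

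Data outside the comparisons also held cells with both genes. Of the BM barcodes that also occur in GVHD, 22 passed the macrophage gate and held at least 2 UMIs of both genes. In GVHD, 13 of these 22 barcodes were double-positive as well. Their median depth was 3300 UMIs in BM, against 38321 UMIs for the same barcodes in GVHD. Outside the gate, 579 barcodes held both genes at that level. Of these, 444 had an Epcam UMI, 121 had more than 1 UMI of the T-cell receptor complex genes, 56 were at or over the S100a8 and S100a9 limit and 7 had too few macrophage gene UMIs; a barcode can count in more than 1 of these sets.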

How the results depend on the processing

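With 1 library per group, the class comparisons rest on 5 libraries that differ in mice, sort and depth. The library was the replicate block in the model. Without it 8 genes were called against Nos2-only cells in place of 442, 155 against Arg1-only cells in place of 1722, 1362 against double-negative cells in place of 4010, and 0 by edgeR for Nos2-leaning against Arg1-leaning cells in place of 77, where 201 genes had an unadjusted p under 0.05. DESeq2, which kept the library in the model, called 47 genes in this last comparison.

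With single libraries left out, calls ranged over 152 to 492 against Nos2-only, 865 to 1986 against Arg1-only, 2965 to 4213 against double-negative and 25 to 78 for Nos2-leaning against Arg1-leaning cells. The 3 libraries sorted for macrophages, chosen after seeing the data, gave 112, 459, 2156 and 32 calls in the same order. Without a filter on low counts 798 genes were called against Nos2-only cells and 235 for Nos2-leaning against Arg1-leaning cells, and in cells of 10000 to 30000 UMIs the comparison within double-positive cells had 31 calls. The number of double-positive cells was 2847 at a threshold of 1 UMI per gene. At 3 UMIs it was 1338, with stricter barcode filters 1713 and with expected doublets removed 1624, against 1804.

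Results of the named genes of the 4 comparisons were counted once per gene and alternative. Of these, 1329 kept their direction and their side of the threshold, 114 no longer passed it and 6 newly passed it. By gene, calls kept in every alternative with the library term numbered 15 of 25 against Nos2-only and 31 of 32 against Arg1-only cells. They numbered 35 of 37 against double-negative cells and 9 of 13 within double-positive cells. The fit of the 3 macrophage libraries was not counted here. Without the library term 3, 14, 30 and 0 were kept, in the same order. No gene was called in the opposite direction in these settings.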

Other observations

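Against double-negative macrophages, 7 of 11 genes in the list of GM-CSF and CSF receptors were higher in double-positive cells and 0 lower, where 17.2% of all genes tested were higher and 15.5% lower. The receptor chain genes Csf2ra, Csf2rb and Csf2rb2 were among the higher ones. Genes of oxidative phosphorylation were higher for 8 of 22 and lower for 1, with a median log2 fold change of 0.08, against 0.76 for glycolysis and hypoxia genes.

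Genes of T-cell inhibition and costimulation were lower than in Nos2-only cells for 4 of 16 and higher for 0, where 1.57% of all genes tested were lower and 2.04% higher. These were Pdcd1lg2, Cd40, Nectin2 and Cd80. Of type I interferon-stimulated genes, 6 of 19 were higher than in Arg1-only cells and 0 lower (8.48% and 5.57% of all genes tested), among them Ifit1, Rsad2 and Isg15.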
